A study of Mus musculus with 4 samples.

Results

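RNA-binding proteins that regulate mRNAs in neurons have mRNAs of their own, and the 3′ ends of those mRNAs were examined in the CA1 neuropil of mouse hippocampus. Members were the rows of the deposited table whose gene name began with a stem of 21 families: Hnrnp, Elavl, Celf, Rbfox, Pum, Fmr1 or Fxr, Nova, Cpeb, Ago, Qk, Ptbp, Mbnl, Pabp, Pur, Stau, Pcbp, Syncrip, Igf2bp, Khdrbs, Caprin and Tnrc6. The choice used names and no measured value, although it was made with earlier results of these data known. It gave 117 polyA sites of 62 genes, out of 9297 sites with 7202 gene names.

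Proteins of these families act on pre-mRNA and mRNA, many of them through short sequence elements. They set how a transcript is spliced, where it ends, how long it lasts and when it is translated. In neurons several of them travel with mRNA into dendrites in transport granules and hold it in a repressed state until a synapse is active. FMRP, the product of Fmr1, is the best known, and many of these proteins bind the long 3′UTRs that brain mRNAs carry.

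The data were 4 replicate libraries of cTag-PAPERCLIP, all of 1 group, from C57BL/6 mice of the genotype Camk2a-Cre x Pabpc1-cTag. Camk2a-Cre drove a GFP-tagged form of the poly(A)-binding protein Pabpc1, made from its native gene, in excitatory pyramidal neurons. The CA1 neuropil, where the dendrites of these neurons run, was microdissected from slices crosslinked with ultraviolet light. RNA held by the tagged protein was recovered, so that a sequenced fragment (tag) is meant to mark the 3′ end of an mRNA. Per the study's methods several mice were pooled for a replicate. Nothing in the labels ties the numbered libraries to separate animals beyond their numbers, and no cell body or untagged library was analysed here. The values below therefore describe neuropil tags, without a contrast, and the SD covers the spread between these libraries, which may be technical. Fewer neurites and less mRNA per neurite cannot be told apart in such samples.

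Replicates 1 to 4 held 16017, 6609, 5947 and 6099 tags. Of these, 32.9%, 11.8%, 2.59% and 2.07% lay at sites with sequence like the repeat-derived RNA Bc1, so the denominator of replicate 1 differed from the others. Counts of 0 allow a share of up to 0.0187%, 0.0454%, 0.0504% and 0.0492% of tags, respectively (3 tags of the total), and these limits and the 95% Wilson intervals below cover counting error only, because PCR copies are not independent molecules. Wilson intervals over sites also treat sites of the same gene as independent, which they are not. Markers of pyramidal neurons (10 genes, 8 with a site) took 0.588% ± 0.248 of tags (SD, n = 4) and 1.15% ± 0.562 when sites were named by the annotation at their position, which brings in Camk2a. Astrocyte markers took 0.173% ± 0.103, oligodendrocyte markers 0.285% ± 0.184, interneuron markers 0.168% ± 0.107, microglial markers 0.00889% ± 0.0103 (2 of 6 with a site) and blood markers from 0.025% to 1.28%, and the part of such cells in the values below was not tested.

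The sequences around 12 of the member sites are given first, because they show where a listed site stands relative to the polyadenylation signal, AATAAA or its variant ATTAAA, that directs cleavage and tailing of an mRNA. Each run is 30 bases of GRCm38 (mm10), read 5′ to 3′ on the strand of the gene, with 14 bases before the listed base and 15 after it, and capitals mark the signal. The first 9 are the main sites of Purb, Celf2, Rbfox2, Pcbp4, Celf5, Hnrnpl, Fmr1, Hnrnpa0 and Pcbp1, followed by both Pabpn1 sites near the end of that gene and the best covered site of Elavl3.
Purb (chr11:6467608-6467637, minus strand): tgtttgtaacaAATAAAgtatgcggaaaag
Celf2 (chr2:6539849-6539878, minus strand): tcgatttcttaAATAAAgcttaagaaagga
Rbfox2 (chr15:77078998-77079027, minus strand): aatgaagcactgtttttaAATAAAagagag
Pcbp4 (chr9:106463975-106464004, plus strand): atccctgtttttgAATAAAtattctcagcg
Celf5 (chr10:81459236-81459265, minus strand): aaaagtttatttAATAAAagttttacttgt
Hnrnpl (chr7:28822214-28822243, plus strand): ttggcacatttcAATAAAattgtttggaaa
Fmr1 (chrX:68717921-68717950, plus strand): atgtaaatttttATTAAAaagttgcactta
Hnrnpa0 (chr13:58126919-58126948, minus strand): cgttttatttttAATAAAtcattgtgtttg
Pcbp1 (chr6:86524501-86524530, minus strand): aagaatttaagaATTAAAcaaatggattgg
Pabpn1, last site (chr14:54898885-54898914, plus strand): ttaaataatgtgtcatgAATAAAgttgttt
Pabpn1, middle site (chr14:54898065-54898094, plus strand): tgtattaggaggagagagaggaaaaaaaga
Elavl3 (chr9:22017802-22017831, minus strand): ggattcttgaacttgaaaaaaaatcacaaa
In the first 10 runs the signal starts between 3 bases before and 4 bases after the listed base. The middle Pabpn1 run holds no signal, the nearest ATTAAA starting 38 bases after the listed base, and for the Elavl3 site neither hexamer was found within 50 bases on either side.

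The member sites carried 174, 93, 74 and 97 tags in replicates 1 to 4, which is 1.09%, 1.41%, 1.24% and 1.59% of the tags of each library (1.33% ± 0.216, SD, n = 4). The Wilson intervals of these shares run from 0.937% to 1.26%, from 1.15% to 1.72%, from 0.992% to 1.56% and from 1.31% to 1.94%. The intervals of replicates 1 and 4 do not overlap, but with Bc1-like sites out of the denominator both had 1.62%, and replicates 2 and 3 had 1.56% and 1.28%. Together that is 438 tags, or 1.26% of all tags, at 1.26% of all sites. Without Purb, the gene with the most tags, the mean was 1.17% ± 0.248 (this alternative was chosen after seeing the data). Tags were spread over many genes at low counts. The median member gene had 3.5 tags over all 4 libraries against 2 for all gene names, 27 of the 62 genes (43.5%, against 62.8% of all gene names) had fewer than 3 tags, and the top 5 genes held 153 tags (34.9% of member tags).

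Of the 117 sites, 55 (47.0%, Wilson interval 38.2 to 56.0) had tags in more than 1 replicate, where 34.2% of all sites did. All 4 replicates had tags at 12 sites (10.3%), against 4.90% of all sites. By gene, 16 of 62 members (25.8%, interval 16.6 to 37.9) were seen in every replicate: Ago2, Celf1, Celf2, Celf5, Elavl1, Fmr1, Hnrnpa0, Hnrnpab, Hnrnpl, Hnrnpu, Pabpn1, Pcbp2, Pcbp4, Pum2, Purb and Rbfox2. The background for gene names is 7.76%. Member genes also had more tags than the typical gene name, and the part of tag count in these shares was not tested. In these 4 libraries, 52 member sites (44.4%, against 57.2% of all sites) held a single tag in all.

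By role, splicing regulators had the most tags, followed by proteins of transport granules and translational control, stability factors, hnRNPs, poly(A)-binding proteins and the miRNA silencing machinery. These are sums over 16, 17, 7, 14, 2 and 6 genes, respectively, so the order reflects group size as well as tags per gene. Splicing regulators took 0.400%, 0.499%, 0.353% and 0.443% of tags in replicates 1 to 4 (0.424% ± 0.0623), and transport and translation factors 0.237%, 0.469%, 0.252% and 0.279% (0.309% ± 0.108). Stability factors took 0.194%, 0.227%, 0.219% and 0.361% (0.250% ± 0.0752), and hnRNPs 0.169%, 0.136%, 0.202% and 0.295% (0.200% ± 0.0686). The ranges of neighbouring roles overlap, and replicate 2 stood highest for splicing and transport factors and replicate 4 for stability factors and hnRNPs. With Bc1-like sites out of the denominator replicate 1 was highest for splicing regulators, with 0.595% against 0.566% in replicate 2. With only sites inside the vM21 gene of their name, which leaves out the far Elavl4 site described below, stability factors were still highest in replicate 4, by less (0.246% against 0.227% in replicate 2). Poly(A)-binding proteins took 0.0562%, 0.0605%, 0.135% and 0.148% (0.0997% ± 0.0481), of which all but 1 tag carried the name Pabpn1. With sites named by the vM21 gene at their position this role took 0.0230% ± 0.0211, below the silencing genes (0.0532% ± 0.0381), so its place depends on how sites are named. The last Pabpn1 site, with 2, 0, 4 and 7 tags, lies past the vM21 gene end but inside the RefSeq gene. Both Ago2 sites lie inside the vM21 gene but past the RefSeq end. The order with RefSeq genes was not tested. The miRNA silencing genes had 5, 1, 5 and 4 tags (0.0490% ± 0.0315).

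**Figure D1:**
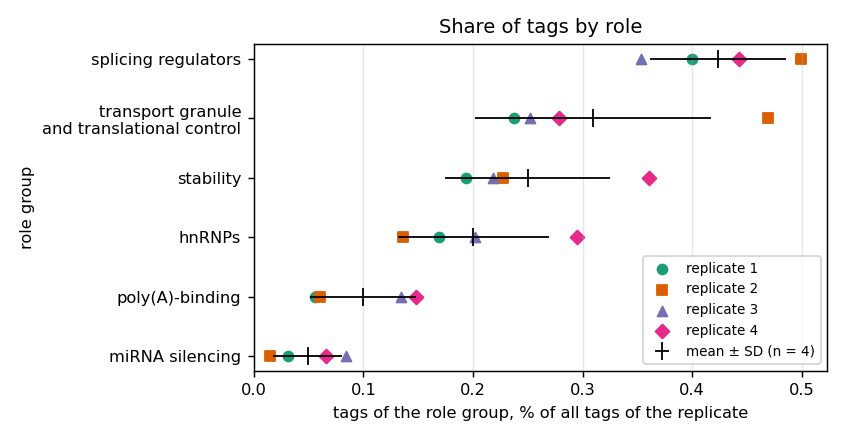
Percent of all tags of a replicate (horizontal axis) that lay at sites of each role group (vertical axis). Symbols are the 4 replicates and black bars the mean ± SD. Splicing regulators lie between 0.353% and 0.499%, and the silencing genes below 0.09%.

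Purb carried the most tags of any member when the libraries were summed. It encodes a single-stranded nucleic acid-binding protein found with its relative Pura in RNA granules. Its gene total was 21, 23, 5 and 4 tags in replicates 1 to 4, or 0.157% ± 0.130 of tags, and its sum ranked it 50th of all gene names. It led the members in replicates 1 and 2, whereas Pabpn1 and Celf2 had more tags in replicate 3 and by name Elavl4 led in replicate 4, where 7 of its 11 tags lay outside the gene and Pabpn1 had 9. The mean over the other 3 libraries, with replicate 2 left out, came to 0.0936%. The site printed above held 19, 23, 2 and 3 of these (47 of 53 tags, 88.7%). It lies 7289 bases past the stop codon and 24 bases before the annotated gene end. Replicates 1 and 2 were thus far higher than replicates 3 and 4 in tags, and as a share replicate 2 stood highest with 0.348% and replicate 4 lowest with 0.0656%. Tags at Purb sites 5295, 4952 and 3328 bases past the stop codon numbered 3, 2 and 1. Each of these sites had a run of 6 A within the 30 bases after it. The site at 5295 had its nearest signal 30 bases downstream, and those at 4952 and 3328 had none within 50 bases. Purb's relatives were scarce, with 2 tags each for Pura (0, 1, 1 and 0) and Purg (2, 0, 0 and 0).

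Fmr1 had 2, 1, 1 and 1 tags (0.0152% ± 0.00195). Its main site had 1 tag in every replicate, 2260 bases past the stop codon. That is at or under the floor of 3 tags in each library, so the small SD says only that single tags recur. The FMRP relatives Fxr1 and Fxr2 had 2 tags each. Pum2, which represses translation of mRNAs with the element TGTANATA (in DNA letters), had 4, 1, 1 and 4 tags (0.0306% ± 0.0237), 9 of them at its site 57 bases before the gene end. Among proteins of cytoplasmic polyadenylation, Cpeb4 had 4, 0, 0 and 3 tags at a site 4081 bases past the stop codon, Cpeb2 had 0, 2, 2 and 0, and Cpeb3 had 2 in all. The double-stranded RNA-binding Staufen genes Stau1 and Stau2 had 1 and 2 tags, and the Stau1 tag lay in an intron at a Bc1-like sequence with 35 copies in the genome, which does not locate the RNA it came from. Hnrnpa2b1, whose protein binds a dendritic targeting element, had 1, 0, 1 and 1. The granule protein gene Caprin1 had 0, 0, 1 and 1. With such counts the order within this role below Purb is not settled.

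Celf2 had the most sites of any member, 9, and the second highest count. CELF proteins bind GU-rich elements and act in splicing, translation and decay. Its gene total was 9, 16, 6 and 5 tags (0.120% ± 0.0832), with replicate 2 well above the other libraries in its share (0.0797% without it). The main site, 5856 bases past the stop codon, had 5, 12, 3 and 1 tags (21 of 36, 58.3%), and every replicate had tags there. A site 942 bases past the stop codon had 2, 2, 2 and 0. That site had no signal within 50 bases and a run of 6 A within the 30 bases after it. The remaining 7 sites held 1 or 2 tags.

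The other CELF genes followed at lower counts. Celf5 had 5, 3, 1 and 5 tags (0.0439% ± 0.0280), 13 of them at the site 3075 bases past the stop codon printed above. Celf1 had 4, 1, 4 and 2 tags, and here the libraries split by site. The 4 tags of replicate 1 lay at a site 4323 bases before the gene end, and the 1, 4 and 2 tags of the other libraries at a site 18 bases before it. Celf4, which holds 3 sites, had 12, 2, 1 and 0 tags, so that 12 of its 15 tags came from the deepest library. Celf3 had 5, 2, 0 and 1 tags and Celf6 had 1 tag.

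Rbfox2, a splicing regulator that binds the element GCATG, had 7, 5, 2 and 1 tags (0.0423% ± 0.0249). Of these, 7, 5, 1 and 1 lay at the site printed above, 5149 bases past the stop codon and 23 before the gene end. Replicate 2 had the highest share, 0.0757%, and replicate 4 the lowest, 0.0164%, and every library held tags. Rbfox3 had 2 tags, both in replicate 1, and no site carried the name Rbfox1. The KH-domain regulators Nova1 and Nova2 had 4, 0, 1 and 2 and 1, 3, 0 and 3 tags. Muscleblind genes gave 3, 1, 0 and 2 tags (Mbnl2) and 0, 0, 1 and 3 (Mbnl1). Khdrbs3, which encodes the neuronal STAR protein SLM2, had 6, 0, 0 and 3 tags at a pair of sites with 4 and 5 tags, and Qk, better known from glia, had 4, 0, 1 and 0.

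Among stability factors, the Hu proteins bind AU-rich elements and protect mRNAs from decay. Elavl4 had 5, 0, 3 and 11 tags (0.0655% ± 0.0793), and 0.0272% of tags without replicate 4. Of these, 10 of 19 (52.6%) stood at a site outside the gene in both vM21 and RefSeq. That site had 0, 0, 3 and 7 tags, lies 151 kb past the vM21 gene end and had no signal within 50 bases. Within the gene, the site 39 bases before its end had 3, 0, 0 and 3 tags. Elavl3 had 12, 2, 0 and 2 tags at 3 sites. Elavl1, which encodes the broadly expressed member HuR, had 5, 2, 4 and 1 tags (0.0363% ± 0.0217), with 6 of 12 at a site 1230 bases past the stop codon. The name Elavl2 was not used for any site.

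The poly(C)-binding proteins, which stabilise mRNAs and repress their translation, varied in how evenly the libraries held them. Pcbp4 had 3, 10, 1 and 1 tags at its only site (0.0508% ± 0.0670), and replicate 2 with 0.151% stood apart from the other 3 libraries at 0.0164% to 0.0187%, whose mean was 0.0173%. Pcbp1 had 3, 0, 3 and 5 tags, all 11 at a site 329 bases past the stop codon. Pcbp2 had 3, 1, 1 and 2 tags (0.0209% ± 0.00808) and Pcbp3 had 1.

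Of the hnRNPs, abundant nuclear proteins that package pre-mRNA, 4 genes were seen in all replicates. Hnrnpu had 3, 1, 2 and 5 tags at 4 sites (0.0374% ± 0.0308, and 0.0225% without replicate 4), and Hnrnpab, whose product also binds mRNAs carried to dendrites, had 6, 4, 1 and 1 (0.0328% ± 0.0209). Hnrnpa0 had 3, 1, 3 and 3 tags, 8 of 10 at a site 462 bases past the stop codon and 1055 bases short of the gene end. Hnrnpl had 4, 2, 1 and 3 tags at its only site, 322 bases past the stop codon (0.0303% ± 0.0137). The shares of these 4 genes overlapped between libraries. The remaining 10 of the 14 genes in this role had 1 to 4 tags.

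Pabpn1, the nuclear protein that binds and measures growing poly(A) tails, had 9, 4, 7 and 9 tags under its name (0.0955% ± 0.0446), but the 3 sites do not all lie in it. The site at chr14:54888211 had 3, 4, 1 and 1 tags and falls in the 3′UTR of the upstream gene Bcl2l2 in GENCODE vM21. The middle site printed above had 4, 0, 2 and 1 tags and lies 23 bases past the stop codon, with a run of 6 A in the 30 bases after it. The last site had 2, 0, 4 and 7 tags and lies 730 bases past the vM21 gene end, yet 28 bases before the end of the RefSeq gene of the same assembly. Named by the vM21 gene at the site, Pabpn1 kept 0.0188% ± 0.0143 of tags. Pabpc1, whose protein carried the GFP tag, had 0, 0, 1 and 0 tags, at or under the floor in every library. The other 7 Pabp genes of vM21 had no site under their names.

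Of the silencing machinery, Ago2, the argonaute that can cut a paired target, had 2, 1, 2 and 3 tags (0.0276% ± 0.0172). They were divided evenly between a site 8290 bases past the stop codon (1, 1, 1 and 1) and one 11032 bases past it (1, 0, 1 and 2). Both rest on the longer vM21 transcript and lie 3007 and 5749 bases past the RefSeq gene end. Ago3, Ago4, Tnrc6b and Tnrc6c had 1 tag each and Tnrc6a had 3.

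**Figure D2:**
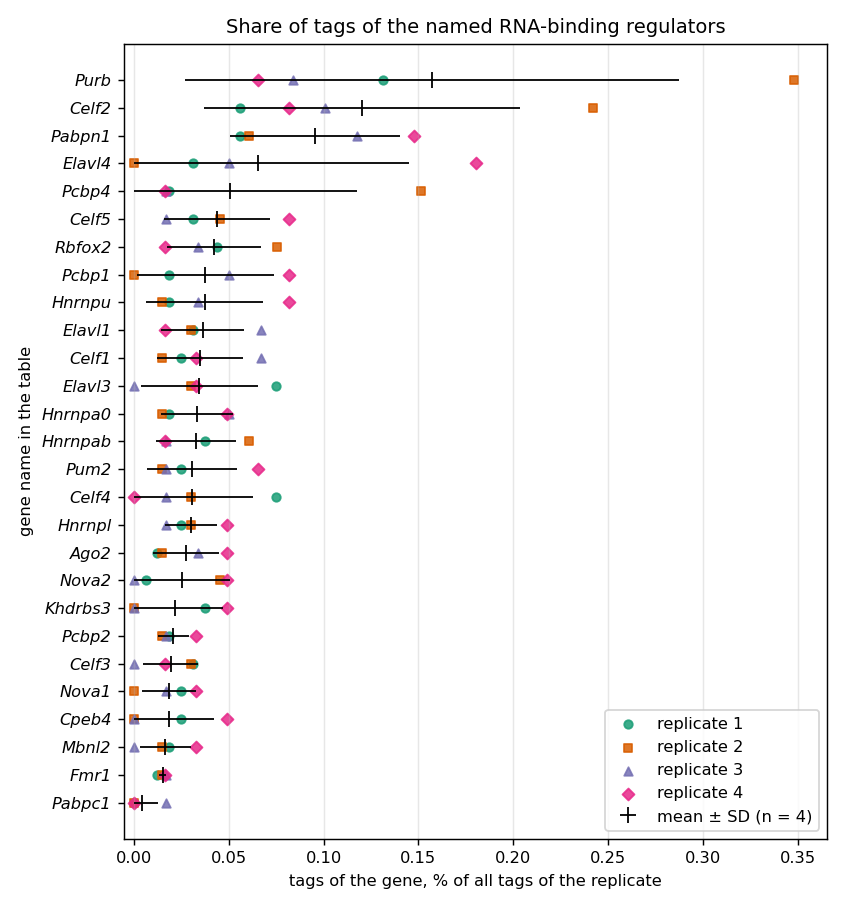
Percent of all tags of a replicate (horizontal axis) for the 27 genes named by rule (vertical axis), ordered by mean. Symbols are the 4 replicates and black bars the mean ± SD, drawn no lower than 0. Purb and Celf2 reach 0.348% and 0.242% in replicate 2, and most other values lie under 0.1% and overlap.

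Ordered by mean share over the 4 libraries, none of the 61 pairs of neighbours among the 62 genes differed by more than the larger of their SDs. Neighbours in a sorted list lie close by construction, so adjacent places are not settled, and genes farther apart were not compared in this way. Tags are meant to stand for mRNA 3′ ends, which do not grow in number with transcript length, and shares were compared without scaling by length. Members that the naming rule left out numbered 35, held 74 tags together and had at most 5 each.

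GENCODE vM21 lists 86 protein-coding genes that fit the name rule, of which 62 had a site. The 24 without one include all 3 Ptbp genes, Syncrip, Igf2bp1, Cpeb1, Ago1 and 5 hnRNP genes (Hnrnpf, Hnrnph1, Hnrnph2, Hnrnpk and Hnrnpul2). Part of this is naming. A further 5 sites with 19 tags lie in a rule gene by vM21 but carry another name in the table, among them Mir5113 in Tnrc6b, Mir6402 in Elavl2 and Mir7-1 in Hnrnpk. A list of 57 other RNA-binding proteins outside the families gave 39 genes with a site, 182 tags and 0.589% ± 0.199 of tags, with 6 of 39 genes (15.4%) in all replicates. Its best covered genes were Cyfip2, a partner of FMRP, with 6, 2, 7 and 3 tags, the exon junction protein gene Casc3 with 6, 3, 5 and 2, and the helicase gene Ddx17 with 5, 1, 4 and 3.

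The sites fell mostly in 3′UTRs. In all, 101 of 117 member sites (86.3%, interval 78.9 to 91.4) lay in a 3′UTR, against 76.5% of all 9294 placed sites. Among sites with tags in more than 1 replicate it was 94.5% (85.1 to 98.1) against 88.6%, inside the interval. Of the rest, 12 lay between genes (10.3%, against 15.3%), 3 in introns and 1 in a noncoding exon. Weighted by tags, 96.6%, 96.8%, 81.1% and 83.5% of member tags lay in 3′UTRs (89.5% ± 8.36), against 73.8% ± 9.29 of all tags. All tags include those at Bc1-like sites (32.9%, 11.8%, 2.59% and 2.07% in replicates 1 to 4), while members held 2 such tags. The part of Bc1-like tags in this gap was not tested. In replicates 3 and 4, 17.6% and 15.5% of member tags lay between genes, mainly at the far Elavl4 site and the last Pabpn1 site. Those shares were 2.87% and 2.15% in replicates 1 and 2.

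By vM21, 103 sites lay inside the gene they were named for and 14 did not. Of these 14, 12 lay past the gene end, 7 of them by over 10 kb with 17 tags and 5 by 10 kb or less with 18 tags. By RefSeq, 4 of the 14 lay inside the gene, at Cpeb3, Elavl1, Pabpn1 and Tnrc6a. The farthest, named Nova1, held 1 tag at 1294 kb past the end. Within 100 bases of the vM21 gene end lay 38 member sites with 49.8% of member tags, all of them before the end, at a median of 24 bases. Over all sites whose name is in vM21 the share of tags so placed was 45.2%. By sites the order was the other way round, with 32.5% of member sites against 42.4% of all such sites.

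A signal within 50 bases on either side was found at 87 member sites (74.4%, interval 65.8 to 81.4), against 78.1% of all sites. AATAAA alone was found at 61.5%, against 64.4%. Either hexamer lay wholly in the 50 bases upstream at only 21.4% of member sites and 30.3% of all sites, since the listed base mostly falls on or before the signal, as in the runs printed above. A run of 6 A stood in the 30 bases downstream of 34 member sites (29.1%, interval 21.6 to 37.8), against 21.5% of all sites. Among sites with tags in more than 1 replicate it was 21.8% (12.9 to 34.4), against 15.3%, inside the interval. Of the 9 member sites with 10 or more tags, the last Pabpn1 site had such a run and the far Elavl4 site had no signal. The median GC content within 100 bases was 35.3%, against 37.3%. The last 40 bases occurred more than once in the genome at 10 member sites with 12 tags, and 2 sites were Bc1-like.

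The 200 bases upstream were searched, on the strand of the gene, for elements that member families bind. The cytoplasmic polyadenylation element TTTTAT occurred upstream of 38 member sites (32.5%, interval 24.7 to 41.4), against 22.8% of all sites. The Rbfox element GCATG occurred at 11 (9.40%, interval 5.33 to 16.1), against 17.1%. The Pumilio element TGTANATA occurred at 6 (5.13%, against 8.38%), the AU-rich element TATTTAT at 9 (7.69%, against 7.49%) and the Qk element ACTAAC at 6 (5.13%, against 2.87%). The last 3 intervals include the value of all sites. In the nearest 100 bases those of TTTTAT (17.9%, 12.05 to 25.9, against 15.1%) and GCATG (5.13%, 2.37 to 10.7, against 8.95%) include it too. Among sites with tags in more than 1 replicate, the 200-base values were 40% (28.1 to 53.2) against 24.0% for TTTTAT, 5.45% (1.87 to 14.9) against 18.95% for GCATG and 1.82% (0.322 to 9.61) against 9.65% for TGTANATA, and these intervals leave out the value of all such sites. There GCATG in 100 bases stood at 1.82% (0.322 to 9.61) against 10.2%. Which intervals include the background thus varies with the window and the sites, and the counts of member sites with TGTANATA (1) and GCATG (3) are small. All these intervals treat sites as independent, which sites of the same gene are not. Of the families' own sites, 2 of 4 Cpeb sites, those of Cpeb2 and Cpeb4, held TTTTAT. The 4 Pum sites, 3 Rbfox sites, 11 Elavl sites and 2 Qk sites did not hold their own element in this window. A match here is a run of letters, not a bound site.

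**Figure D3:**
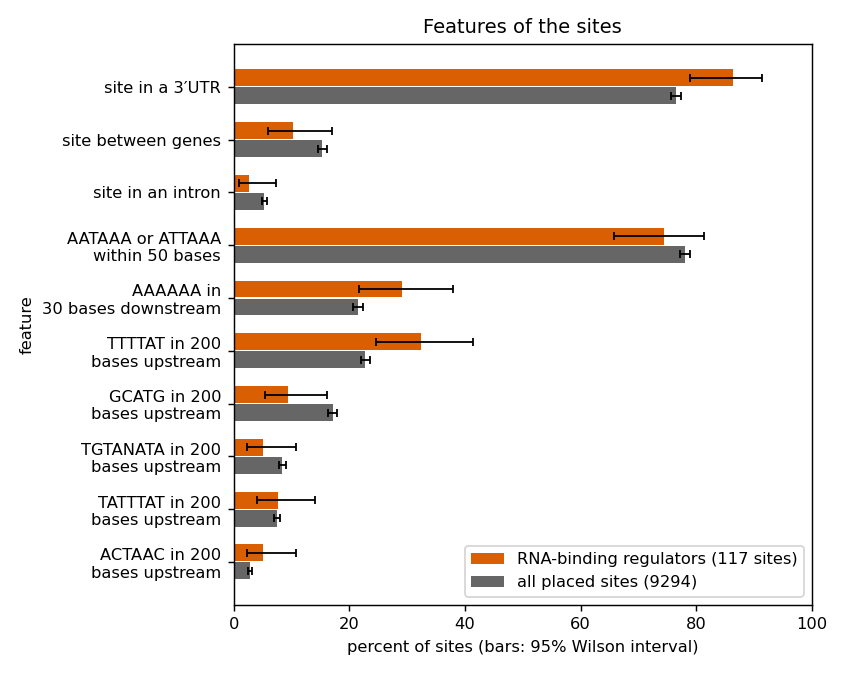
Percent of sites (horizontal axis) with each feature (vertical axis) among the 117 member sites (orange) and all 9294 placed sites (grey). Bars carry 95% Wilson intervals, which treat sites as independent. Members stand above all sites for 3′UTR position (86.3% against 76.5%) and TTTTAT (32.5% against 22.8%) and below for GCATG (9.40% against 17.1%). For both elements the interval includes the value of all sites when 100 bases upstream are searched.

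The 3′UTRs that ended at member sites were long. The median length from the stop codon to the site was 1460 bases over 101 sites (95% interval 1032 to 2210, range 23 to 11867), against 957 (925 to 993) over all 7107 sites in 3′UTRs. Over 5 kb lay 9 member sites (8.91%) and 4.31% of all sites. The interval of the median treats sites as independent, which sites of the same gene are not. Taking each gene's best covered site, the medians were 1219.5 (934 to 2045, 58 genes) and 924 (891 to 957, 5960 genes). Among sites with tags in more than 1 replicate they were 1240.5 (934 to 2571) and 1032 (967 to 1080), and the intervals of members and all overlap in both of these comparisons.

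By role this length varied. For hnRNPs the median was 709 bases (338 to 1032, 23 sites), with none over 5 kb and the longest at 2600. For splicing regulators it was 2266 (1176 to 3075, 33 sites), and the intervals of these roles do not overlap. These intervals also treat sites as independent, although 9 of the splicing sites are of Celf2. By role, no median with a single site per gene was taken. Silencing genes (3225, 8 sites), transport and translation factors (1768, 21 sites) and stability factors (1230, 13 sites) lay between or above with wide intervals, and the 3 poly(A)-binding sites had a median of 388. Weighted by tags, the median member 3′UTR was 1721, 4767.5, 1230 and 2571 bases in replicates 1 to 4, against 1051, 847, 964 and 1098 for all tags. Member tags lay at longer 3′UTRs in every library. With only sites inside the vM21 gene of their name, which leaves out the Pabpn1 site in Bcl2l2, the member values were 1568, 5149, 1230 and 2415.5. Leaving out Purb as well gave 1192.5, 2666, 1013.5 and 2127.5, so the height of replicate 2 rested partly on Purb.

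**Figure D4:**
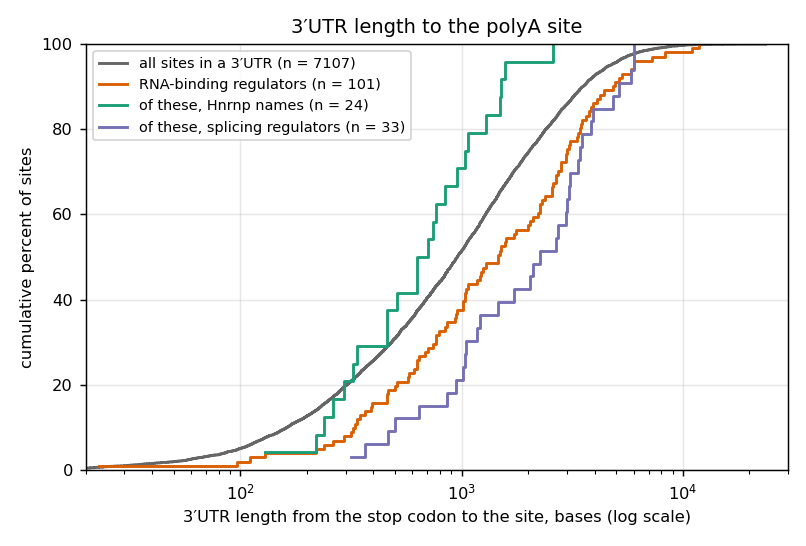
Cumulative percent of sites (vertical axis) against 3′UTR length from the stop codon to the site in bases (horizontal log axis). All sites are grey, members orange, the Hnrnp names (24 sites, here with Hnrnpa2b1) green and splicing regulators purple. Members lie to the right of all sites, splicing regulators farther right (median 2266), and hnRNPs to the left (median 670).

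Several ends of a gene, each with tags in more than 1 replicate, were found for 11 of 62 member genes (17.7%, interval 10.2 to 29.0), with a background of 2.99% of gene names. The count was 5 without replicate 1. Member genes also had more tags than the typical gene name (a median of 3.5 against 2), and the part of tag count here was not tested. The 11 genes were Ago2, Celf2, Celf4, Elavl1, Elavl3, Elavl4, Hnrnpab, Hnrnpu, Khdrbs3, Pabpn1 and Purb. Summed over these genes, the most distal site took 42 of 66, 38 of 51, 15 of 24 and 24 of 32 of the tags at the most distal and most proximal site, that is 63.6%, 74.5%, 62.5% and 75% (68.9% ± 6.77). All 215 genes of this kind, members included, gave 61.7% ± 5.74. Purb decided much of this. Its distal site had 19, 23, 2 and 3 tags and its proximal site 1, 0, 1 and 0, and without it the member share was 59.5% ± 9.97.

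Gene by gene the choice of end went both ways. The distal site held more tags in 6 of the 11 genes (54.5%), the proximal site in 4, and Ago2 was even. Of all 215 such genes 54.4% had more tags at the distal site, so the members' count is that of the table. Celf2 was distal, with 5, 12, 3 and 1 tags against 0, 0, 1 and 1 at the proximal site 466 bases past the stop codon. Of the neuronal regulators with mostly proximal tags, Elavl3 had 6, 1, 0 and 1 proximal tags against 4, 1, 0 and 0 distal. Hnrnpab had 3, 2, 1 and 1 against 2, 2, 0 and 0, and Celf4 had 5, 2, 0 and 0 against 3, 0, 1 and 0. Elavl1 was also mostly proximal, with 2, 2, 2 and 0 against 1, 0, 1 and 0. In 10 of these genes a replicate had at most 12 tags at either end, so single genes could not be compared between libraries at this depth. The proximal sites of Elavl3, Celf4 and Purb have a run of 6 A in the 30 bases after them. Those of Elavl3 and Purb have no signal within 50 bases, and that of Celf4 has its nearest signal 30 bases downstream. The distal sites counted for Elavl4, Pabpn1 and Elavl1 lie past the vM21 gene end, that of Elavl1 by 374 bases, and the proximal site of Pabpn1 lies in Bcl2l2. Without Elavl4 and Pabpn1, left out after seeing the data, the member share was 65.0% ± 12.7.

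**Figure D5:**
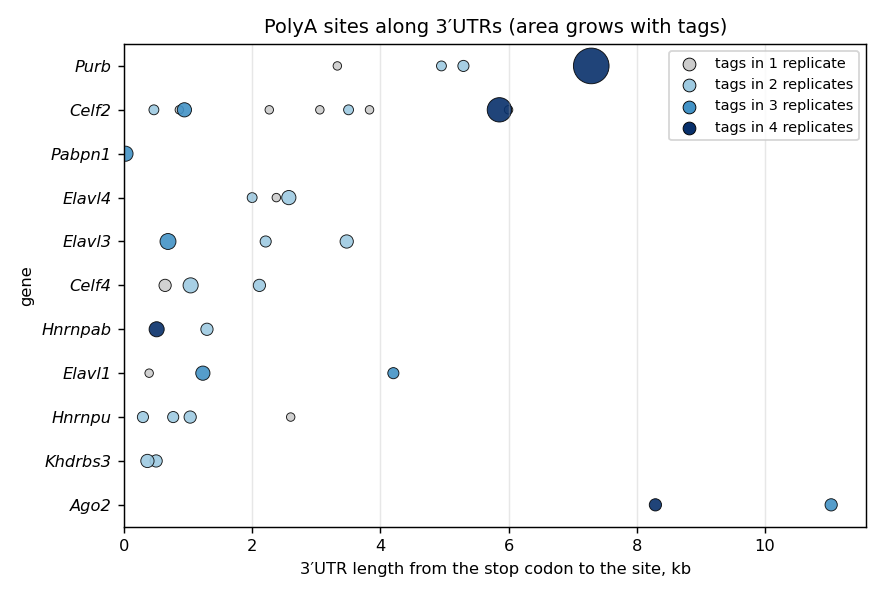
Sites of the 11 genes with more than 1 site (vertical axis) by 3′UTR length from the stop codon in kb (horizontal axis). Circle area grows with the tags over all replicates and colour gives the number of replicates with tags. Sites outside a 3′UTR and the Pabpn1 site in Bcl2l2 are left out. Tags of Purb and Celf2 concentrate at 7.29 and 5.86 kb, while Hnrnpab, Hnrnpu and Khdrbs3 end within 2.6 kb.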

How the data were processed

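The authors deposited raw tag counts of the 4 libraries, 1 row for each polyA site, with its position, strand and gene. The counts are labelled as neuropil tags that overlap Camk peaks, so the sites may have been called with other libraries as well. The submitters' processing notes name cutadapt, Novoalign and the mm10 build, and the study's methods name the CTK package for clustering tags into sites. Removal of duplicate tags and the handling of tags that match several places are not given in the sources used here, which matters most at repeats.

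Members and gene lists were chosen with earlier results of these data known. Genes picked by rule were those with tags in every replicate, the 25 with the most tags and those with several ends recurring between replicates. Purb, Pabpn1, Rbfox2, Pabpc1 and Fmr1 were picked as well. Other members are given by counts, many of them with their names. Counts were analysed as deposited with Python 3.11.15, pandas 2.3.3, numpy 2.4.6 and scipy 1.17.1. Sites were placed in GENCODE vM21 on GRCm38, a 3′UTR taking precedence over coding, 5′UTR, noncoding and intronic positions, and compared with RefSeq gene ends. The 3′UTR length was the shortest over transcripts whose 3′UTR holds the site. Median intervals are order-statistic intervals at 95%. A site was Bc1-like with at least 10 of 63 words of 12 bases of Bc1 within 75 bases. There is 1 group, so no groups were compared, and with 4 replicates an exact two-sided sign-flip test could not go below 0.125. Outlying libraries were marked by Dixon's rule. Scripts were tested on simulated data.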

Additional observations from a re-analysis of the deposited data

Results flagged for a closer look

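The share of Pcbp4 was marked because 1 library lay far from the others. Replicate 2 held 10 of the 15 Pcbp4 tags, and its distance to the nearest other library was 0.983 of the whole range of the 4 values, past Dixon's 95% limit for 4 samples. Of 24 values examined this way 1 was marked, and chance alone gives about 1.2 (1 in 20). Replicate 2 was also highest for Purb and Celf2. The cause was not tested.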

How the results depend on the processing

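Of 88 alternative values of the main results, 68 stayed within the spread between replicates or within 1.5 times for counts, and 20 moved. The share of member tags stayed between 1.17% and 1.52% under every alternative tried. Leaving out each replicate in turn gave 35 to 49 member sites seen in more than 1 replicate (55 with all), 5 to 9 member genes with more than 1 such site (11 with all) and a distal share of 58.6% to 74.1%. The lowest of the first 2 came without replicate 1, the deepest library. Asking for 2 tags in each of more than 1 replicate left 27 sites, and tags in all 4 left 12. Counting all listed sites gave 32 genes with more than 1 site. With Bc1-like sites out of the denominator splicing regulators took 0.494%. The share of member sites in a 3′UTR was 94.5% among sites in more than 1 replicate (88.6% of all such sites) and 97.2% with vM21 names, which are taken from the gene the site lies in, and the share with a signal was 83.6%, 61.5% with AATAAA alone and 21.4% upstream only. In 100 bases upstream TGTANATA stood at 1.71%, GCATG at 5.13%, TTTTAT at 17.9% and ACTAAC at 1.71% of member sites, against 5.56%, 8.95%, 15.1% and 1.40% of all sites. Among alternatives chosen after seeing the data, the distal share was 59.5% without Purb, and poly(A)-binding proteins took 0.0230% with vM21 names and 0.0230% with only sites inside the gene of their name. For single genes and families 300 of 303 alternative values stayed within the spread, which was wide. The exceptions were Pabpn1 with vM21 names and Fmr1 without Bc1-like sites (0.0174%) or with sites in more than 1 replicate (0.0183%). Leaving out 1 library still moved some gene means by over 1.5 times. Besides those given in the report, the means were 0.0157% for Celf4 and 0.0210% for Elavl3 without replicate 1, and 0.0231% for Pcbp1, 0.0190% for Pum2, 0.0125% for Khdrbs3 and 0.00832% for Cpeb4 without replicate 4. The only Pabpc1 tag was in replicate 3. No paired analysis was possible because all libraries belong to 1 group. Counts of a few tags per gene limit what can be compared, and gene names in the table decide which sites are members.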
